A study of Mus musculus with 2 samples.

Results

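Paneth cells sit at the base of small intestinal crypts and discharge granules of antimicrobial protein into the lumen. The genes described here encode 8 secreted or surface proteins of luminal defence: the lysozymes Lyz1 and Lyz2, the mucosal pentraxins Mptx1 and Mptx2, the intelectin Itln1, the protease Habp2, the surface protein Lypd8 and the siderophore-binding lipocalin Lcn2. They were chosen by name, with earlier results of these data known. Every probe set (a group of short probes aimed at one transcript) annotated with one of these names was taken, whatever its level. Of the 8 genes, 7 had a probe set, with 10 probe sets in all, among 18193 genes on the array. Mptx2 had no probe set of its own name and was not analysed here.

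The RNA came from the small intestine of mice aged 6 to 8 weeks on the BALB/c background. The transgenic group carries an IL-9 transgene (IL-9 is a type 2 cytokine that promotes mast cell growth) and the control group is wild type. No treatment was given to either group. The sources used here give neither the promoter of the transgene nor the segment of intestine sampled. Each group is 1 pool of 3 mice on 1 Affymetrix MOE430 2 array, so the spread between mice is not known, no difference has a replicate check and no p-value is given.

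Lysozyme cleaves the peptidoglycan of bacterial walls. In the mouse, Lyz1 is the Paneth cell form and Lyz2 the form of macrophages and other myeloid cells. Pentraxins are ring-shaped proteins of the C-reactive protein family, and the mucosal members are made in the gut epithelium. Intelectins bind sugars found on microbial surfaces and are products of Paneth and goblet cells. Lypd8 is a membrane-anchored protein of enterocytes that binds flagellated bacteria, and Lcn2 starves bacteria of iron by capturing their siderophores.

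Both lysozymes and both mucosal pentraxins are pairs of closely related genes, and the bases just before their start sites are shown because they make the relation visible. The sequences are from RefSeq, build GRCm38.p6, which also holds promoters for the other 4 genes. Each is written 5′ to 3′ on the gene's own strand, and capitals mark the bases that do not match the partner gene in an alignment. The Lyz1 stretch lies at chr10:117292869-117292968 on the minus strand and the Lyz2 stretch at chr10:117282273-117282372 on the minus strand. Lyz2 is the next protein-coding gene to Lyz1 in the RefSeq table, with 0 others between them. The Mptx1 stretch lies at chr1:174330439-174330517 on the plus strand and the Mptx2 stretch at chr1:173277778-173277856 on the minus strand.
Lyz1: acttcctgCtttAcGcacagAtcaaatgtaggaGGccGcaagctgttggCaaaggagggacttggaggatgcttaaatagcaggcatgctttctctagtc
Lyz2: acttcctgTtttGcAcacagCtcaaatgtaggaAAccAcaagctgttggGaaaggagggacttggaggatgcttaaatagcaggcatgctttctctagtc
Mptx1: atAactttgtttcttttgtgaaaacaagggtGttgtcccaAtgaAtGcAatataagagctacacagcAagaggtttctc
Mptx2: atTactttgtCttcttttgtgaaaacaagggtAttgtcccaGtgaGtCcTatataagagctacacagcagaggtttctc

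The Lyz1 and Lyz2 stretches were identical at 92 of 100 aligned positions, and the last differing base lies well before the start site. Over the full 250 bases before each start, the lysozyme pair matched at 79.4% of aligned positions. The Mptx1 and Mptx2 stretches were identical at 72 of 80 aligned positions (90%), and over 250 bases at 72.8%. The Mptx1 stretch ends 1 base before its annotated start and the Mptx2 stretch 22 bases before its own, so the annotated starts are not at matching positions. The 250 bases before each annotated start of the 8 genes were searched on both strands for a TATA box (TATAAA), a TCF/LEF site (ATCAAAG) and a STAT site (TTCNNNGAA). The exact letters TATAAA were found in Mptx1 alone, at 2 places, and in 12.4% of all 32851 RefSeq promoters. The farther place was at position -198 from the annotated start. Both places lie farther from the start than the letters tataagag, which the printed Mptx1 and Mptx2 stretches share. The search did not count tataagag, so it cannot set Mptx1 apart from Mptx2 by a TATA box. The TCF/LEF letters were found in 0 of the 8 genes and in 3.21% of promoters, and the STAT letters in 0 of the 8 genes and in 7.02%. A lack of these letters in this window says nothing of the factors.

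Values are intensities on a linear scale as deposited. Each difference subtracts the wild-type value from the transgenic one in log2(intensity + 1), so that 1 stands for 2-fold, and a fold on this scale understates the change of dim probe sets. An intensity of 78.5, the median of all values, is used as a mark for dim probe sets, and 8 of the 10 lay above it as the mean of both pools. Intensities are compared between pools for one probe set, because each binds with its own strength. Exceptions are the choice of a gene's brightest probe set, sums over marker lists, which bright probe sets lead, and the 3′ to 5′ ratios given last.

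Among the 7 measured genes, Mptx1 was the one that differed by 2-fold or more. Of the 10 probe sets, 1 was higher in the transgenic pool by 2-fold and 0 were lower, against 0.275% of all probe sets higher and 0.111% lower by that size. Because the genes were chosen with earlier results known, this contrast is no test. The median difference of the 10 was 0.06, against 0.01 over all 45037 probe sets. Of the 10, 5 lay above 0 and 5 below, and the 4 lysozyme probe sets were all on the lower side. For probe sets above the mark, 95% of differences fell between -0.53 and 0.53, and the 7 other member probe sets above it lay inside that range.

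**Figure D1:**
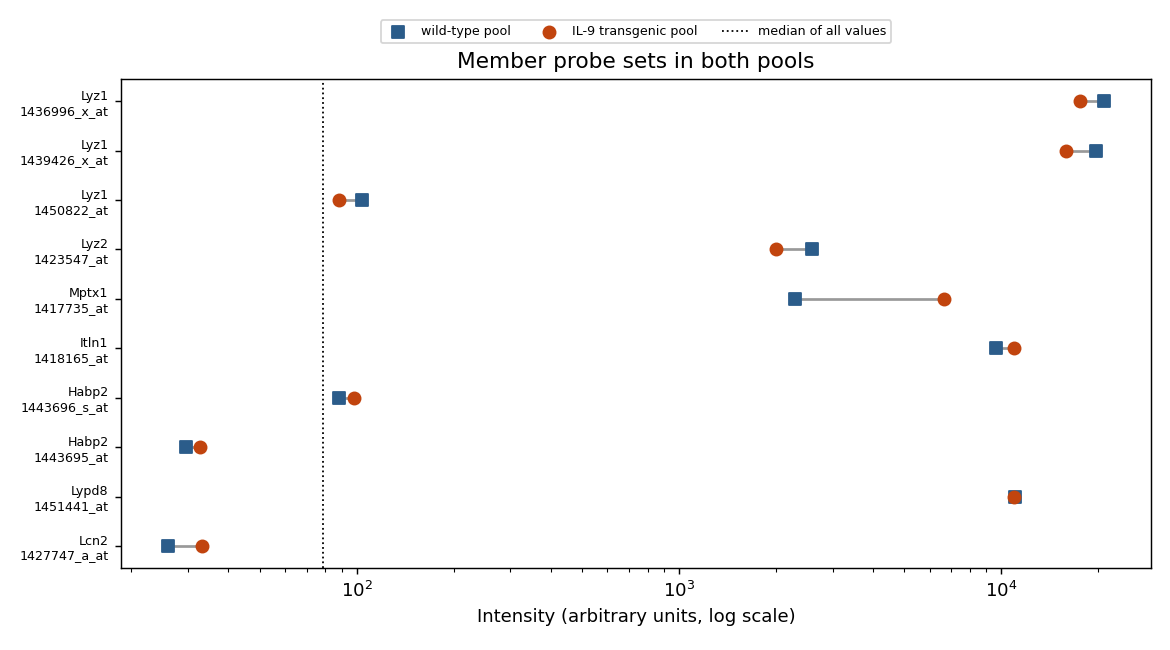
Intensity of the 10 member probe sets (arbitrary units, log axis) in the wild-type pool (blue squares) and the IL-9 transgenic pool (orange circles), 1 array each, with a dotted line at the median of all values, 78.5. Mptx1 has the widest gap, from 2293 to 6632, the lysozyme points lie to the left in the transgenic pool, and the 2 Lypd8 points coincide at this scale.

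The lysozyme probe sets read lower in the transgenic pool by less than 1.3-fold. For Lyz1, 1436996_x_at read 17539 with the transgene and 20805 in wild type, which is -0.25 on the log2 scale. Its companion 1439426_x_at read 15895 and 19725, a difference of -0.31. The third Lyz1 probe set, 1450822_at, read 88.1 and 103.7, a difference of -0.23.

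All 3 probe sets of Lyz1 therefore pointed the same way and lay within 0.08 of each other. This is less than the SD of 0.23 by which probe sets of the same gene differed over the 4835 genes with several above the mark. The third lay little above the mark, and all 3 were read on the same 2 arrays, so their likeness is no separate check. The highest value of any probe set was 24147 with the transgene and 25799 in wild type. Probe sets whose names end in _x_at hold probes that can bind related transcripts. The part of Lyz2 transcript in the signal of the _x_at pair was not tested.

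Lyz2 was measured by 1423547_at, which read 1995 with the transgene and 2586 in wild type. The difference was -0.37, or 1.30-fold lower, and 4.79% of all probe sets lay below it. This was the lowest of the member differences and stayed under 2-fold.

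Macrophages, a known source of Lyz2, had no marker past 2-fold. Of 12 macrophage markers with a probe set, 0 were higher and 0 lower by 2-fold, 8 lay above 0, and the median was 0.07. Over all 18193 genes, each taken at its brightest probe set as in all lists here, 0.412% were higher and 0.132% lower by 2-fold, with a median of 0.01. The summed intensity of the macrophage markers was 5163 with the transgene and 5137 in wild type. Csf1r, the receptor for macrophage growth factor, read 2146 and 2101, a difference of 0.03. Farthest from 0 were Itgam, an integrin chain of myeloid cells, which read 46.0 and 32.9 (0.47), and Cx3cr1, a chemokine receptor, which read 201 and 149 (0.43, with 0.06 in its other probe set). The lowest was C1qb, a complement subunit, at -0.37, with probe sets from -0.37 to 0.11. In bulk tissue, fewer cells of a type and less RNA per cell cannot be told apart.

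The hybridisation controls, bacterial and phage transcripts added to the labelled sample, shared the sign of the lysozyme differences. All 18 of their probe sets read lower in the transgenic pool, from -0.44 to -0.06, with a median of -0.25. The labels do not say whether equal amounts were added. Centred on these controls, Lyz1 differed by 0.0072 and Lyz2 by -0.12, and the median of all probe sets moved to 0.26. Centring subtracts the same value from every probe set, so the place of the lysozymes below that median could not change. The part of the controls' shift in the lysozyme values was not tested.

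**Figure D2:**
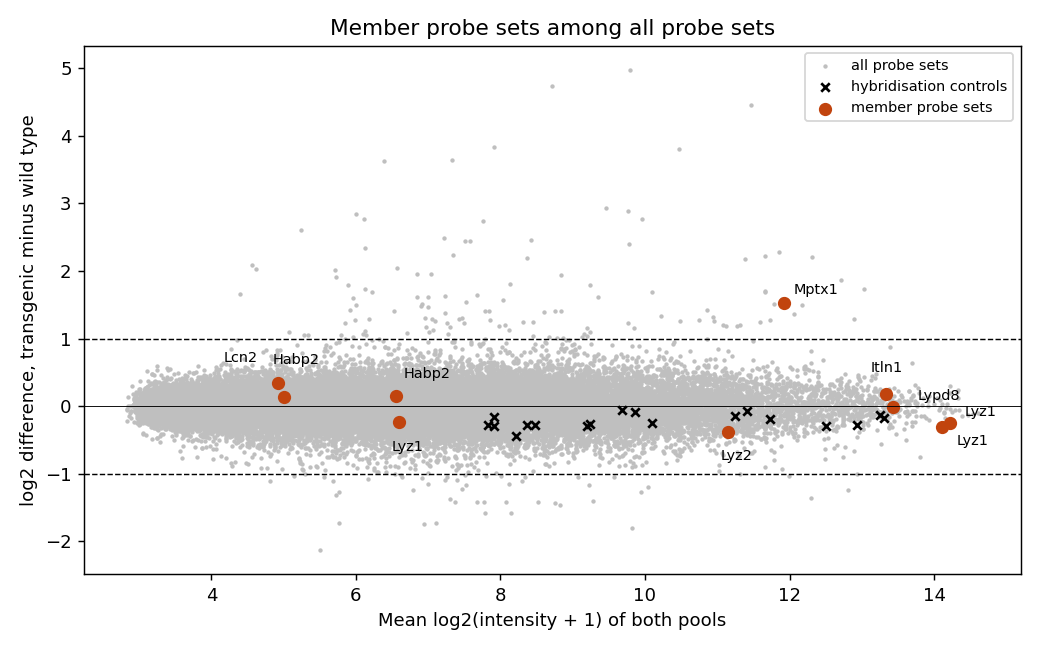
Log2 difference between the pools (transgenic minus wild type) against the mean log2 intensity of both pools for all probe sets (grey), the 10 member probe sets (orange, with gene names) and 18 hybridisation controls (black crosses). Dashed lines mark 2-fold. Mptx1 lies at 1.53, above the upper line, and the other member probe sets lie between the lines, with the lysozymes at heights like those of the controls.

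Mptx1 read 6632 with the transgene and 2293 in wild type with its only probe set, 1417735_at. The difference was 1.53 on the log2 scale, or 2.89-fold higher. Of 22540 probe sets above the mark, 41 had a higher difference. The value ran from 1.51 to 1.79 over the alternative settings. Whether its probes also bind the Mptx2 transcript was not tested.

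No other measured pentraxin was past 2-fold. Of 6 with a probe set, 0 passed it in either direction, 3 lay above 0 and the median was 0.06. Apcs, serum amyloid P, read 61.9 and 49.7, a difference of 0.31, and Ptx4 read 30.1 and 24.4, a difference of 0.29. Crp, C-reactive protein, read 32.0 and 33.7. Of the 6, 1 lay above the mark (Nptx1, a neuronal pentraxin, 114 against 100.3).

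With 2 arrays, the pattern of a gene is a single difference, and likeness to Mptx1 means only a difference of like size. Of 11620 other genes above the mark, 8 lay within 0.1 of Mptx1. The 3 nearest were Ccl11, an eosinophil attractant (313 against 106, 1.55), Clps, the pancreatic-type colipase (5963 against 2099, 1.51), and Iglv1, an antibody light chain segment (7776 against 2744). On the chromosome, the measured coding genes nearest to Mptx1 in the RefSeq table were Ifi202b (-0.37) and Fmn2 (0.15). Those nearest to the unmeasured Mptx2 were Fcer1a and Ackr1. Fcer1a, a chain of the IgE receptor of mast cells, read 109 with the transgene and 31.0 in wild type. Fcer1a lay below the mark as the mean of both pools. Ackr1, on the other side of Mptx2, read 155 and 136, a difference of 0.19.

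Itln1 read 10952 with the transgene and 9660 in wild type. The difference was 0.18, 1.13-fold, and 80.7% of all probe sets lay below it, so this is a difference of common size on these arrays. Its annotation carries older names of several intelectin genes, and signal from relatives was not tested.

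Habp2, which encodes a secreted protease with kringle domains that binds hyaluronan, differed by less than 2-fold. Its probe set 1443696_s_at read 98.3 with the transgene and 88.1 in wild type, a difference of 0.16. The other, 1443695_at, read 32.6 and 29.5, a difference of 0.14, below the mark in both pools. Both probe sets pointed the same way by amounts under that SD. Of the 7 kringle-type serine proteases in the same family list, 0 passed 2-fold and the median was -0.02. At the brightest probe set, the largest difference was 0.52 in Hgfac, the activator of hepatocyte growth factor (380 against 265). The lowest was -0.19 in F2, prothrombin (70.8 against 81.1). Dimmer probe sets of Plau and Hgf, below the mark, differed by -0.51 and -0.33.

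Habp2 is also made in liver. Of 9 liver markers with a probe set, 2 were higher by 2-fold, 6 lay above 0 and 3 below, and the median was 0.08. The 2 were Cyp2e1, a cytochrome of drug metabolism (106 against 37.0), and Apoh, a plasma glycoprotein (233 against 98.6). Cyp2e1 lay below the mark as the mean of both pools, and the second Apoh probe set read 28.1 in both pools. Alb, serum albumin, read 75.3 and 63.6, below the mark in both pools. Their part in the Habp2 values was not tested.

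Lypd8 read 10943 with the transgene and 11073 in wild type. The difference of -0.02 was the smallest among the members and had no settled sign, at 0.24 when centred on the hybridisation controls. Of 12 other Ly6/uPAR family genes, 0 passed 2-fold and the median was 0.05. The largest were 0.29 in Psca, a membrane-anchored antigen (100.3 against 81.8), and -0.28 in Lypd4 (44.8 against 54.8). Enterocyte markers, the cells that make Lypd8, had 0 of 7 past 2-fold, a median of -0.09 and summed intensities of 112115 and 116954. In that list Lct, lactase, differed by -0.32 and Fabp1, a fatty acid carrier, by 0.12.

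Lcn2 was dim in both pools. Its probe set 1427747_a_at read 33.1 with the transgene and 26.0 in wild type, a difference of 0.34. Neither value reached the mark, and with no detection calls signal and background cannot be told apart at this level. Neutrophils, which store the protein, gave no marker past 2-fold: of 10, 7 lay above 0, the median was 0.09 and the summed intensity was 562 and 536. Ngp, a neutrophil granule protein, read 67.7 and 54.3, and Ltf, lactoferrin, 44.5 and 52.4, and in the whole list 1 gene lay above the mark. The Lcn2 receptor Slc22a17 differed by 0.15, and the other, Lrp2, by 0.19 in its brightest probe set, with its 3 probe sets from -0.26 to 0.19 and below the mark. The 12 other lipocalins with a probe set had a median of 0.04 with 0 past 2-fold, led by Lcn8 at 0.17 and Apod, an apolipoprotein, at 0.16.

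Adipocytes also make Lcn2. Of 5 adipocyte markers, 2 were higher by 2-fold, Adipoq, adiponectin (91.9 against 14.3), and Car3, a carbonic anhydrase. Adipoq lay below the mark as the mean of both pools. The brightest Car3 probe set read 263 against 84.3, and its 4 probe sets ran from 0.14 to 3.62. Cidec, Retn and Lep differed by 0.21, 0.25 and 0.04. All 5 lay above 0, with a median of 0.25 and summed intensities of 1105 and 745. Their part in the Lcn2 value was not tested.

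Lcn2 is known as a target of IL-22 and IL-17 in epithelium. In the list of 18 measured genes of that response, 1 was higher by 2-fold and 0 were lower, and the median was -0.02. The gene was Duoxa2, which matures a peroxide-forming oxidase (561 against 83.1). Reg3b and Reg3g, both antibacterial lectins, read 5540 against 11069 and 2376 against 4417. The difference of Reg3b was -0.998, just inside 2-fold, and it passed 2-fold under quantile normalization and under median scaling.

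**Figure D3:**
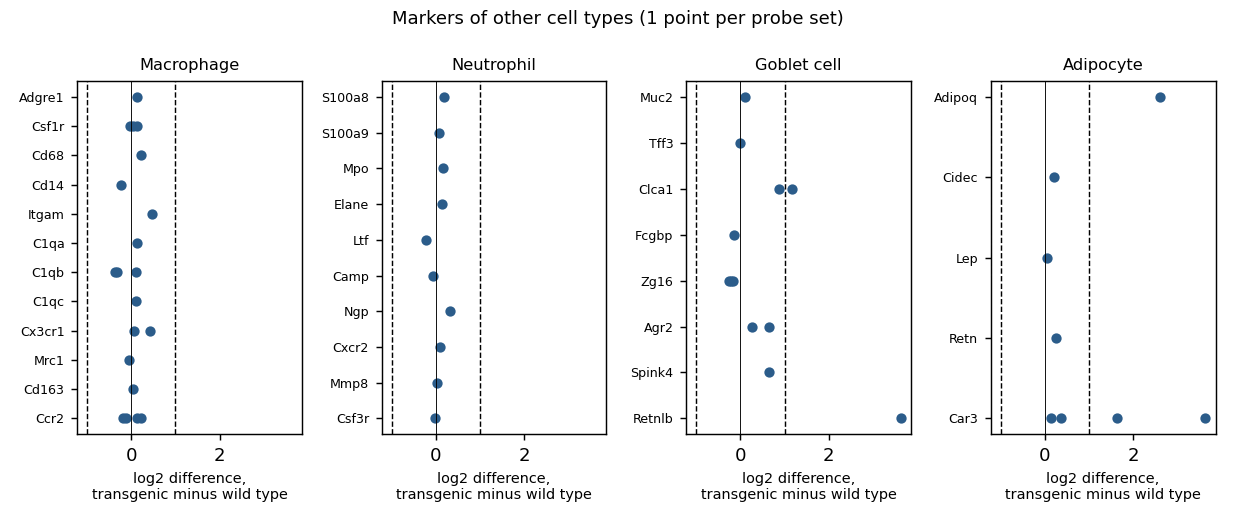
Log2 differences (transgenic minus wild type) of markers of macrophages, neutrophils, goblet cells and adipocytes, 1 point per probe set, with dashed lines at 2-fold. Macrophage and neutrophil points lie between the lines, while Retnlb (3.64) and 1 probe set of Clca1 (1.17) among goblet cell genes, and Adipoq (2.60) and 2 probe sets of Car3 (3.62 and 1.63) among adipocyte genes, lie beyond the upper line.

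Other products of Paneth cells differed in both directions, which sets the lysozymes and Mptx1 in context. Of 26 genes listed, 13 had a probe set, and 4 of these were higher and 1 lower by 2-fold. The median was 0.29, against 0.01 over all genes. This list too was chosen with earlier results known, so that contrast is no test. Ang4, an antimicrobial ribonuclease, read 15190 with the transgene and 4590 in wild type, and its pair of probe sets gave 1.73 and 1.71. Pnliprp2, a lipase, read 8180 and 1682 (2.28), and Reg4, a lectin, read 6612 and 2210 (1.58). The fourth was Clps, given above with the genes nearest to Mptx1.

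The gene lower by 2-fold was Defa31, an alpha-defensin, which read 3142 with the transgene and 8089 in wild type (-1.36). Defa39, another alpha-defensin, read 11086 and 18609 (-0.75). Both were measured by _x_at probe sets, which can bind related defensins. Not every defensin probe set was lower by such amounts. One shared by Defa30 and Defa24, also an _x_at probe set with the same limit, read 16828 and 17497 (-0.06). One shared by Defa22 and Defa21 read 22.2 and 23.6 (-0.09), and that of Defa3 read 18.2 and 17.9 (0.02). The latter 2 probe sets lay below the mark. Mmp7, the protease that activates defensins, read 2762 and 2087 (0.40), and Pla2g2a, a bactericidal phospholipase, 15419 and 12824 (0.27). Guca2b, uroguanylin, read 10633 and 10501 (0.02) and Reg3a 2949 and 3882 (-0.40).

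The list of Paneth cell markers is no separate check of the genes described here, since Lyz1, Mptx1, Itln1 and Habp2 are 4 of its 7 measured genes. The other 3 are Ang4, Mmp7 and Pla2g2a, given above, and all 3 lay above the mark and above 0, with Ang4 past 2-fold. The remaining 5 of the 12 listed, defensins and Mptx2, had no probe set of a single name.

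Genes that direct or shape Paneth cells gave 0 of 12 past 2-fold in either direction, with a median of 0.07. Atoh1, the factor that starts the secretory lineage, read 700 with the transgene and 389 in wild type (0.85). Spdef, a factor of goblet and Paneth maturation, read 308 and 172 (0.84). Both passed 2-fold once centred on the hybridisation controls. Sox9, needed for Paneth cells to form, differed by 0.31 in its brightest probe set, Gfi1 by 0.22, and Xbp1, a secretory stress factor, by 0.06 with its probe sets spread from -0.24 to 0.43. Tcf7l2, the Wnt effector next to Habp2 in the RefSeq gene order, differed by -0.16 in its brightest probe set, but its 4 probe sets ran from -1.16 to -0.11.

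Genes for the sorting of lysozyme and the making of granules gave 0 of 11 past 2-fold, with a median of 0.02. Agr2, a folding factor for secreted proteins, differed by 0.66 (4343 against 2752), and Irgm1, an autophagy GTPase, by 0.56 (545 against 370). Rab2a and Lrrk2, which serve the sorting of lysozyme into granules, differed by 0.02 and -0.06, though Rab2a probe sets ran from -0.90 to 0.25. Of the other members of the lysozyme family, 7 had a probe set and 1 of these, Spaca3, lay above the mark (98.5 against 102.1). At the brightest probe set 0 passed 2-fold, all 7 lay below 0 and the median was -0.17, with -0.61 in Lyzl4 (20.3 against 31.5) and -0.19 in Lyg2 (19.3 against 22.2), both below the mark. Further probe sets pointed the other way for Lyzl6, up to 0.23, and Spaca3, up to 0.33, and the mean over their probe sets was 0.09 and 0.14.

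**Figure D4:**
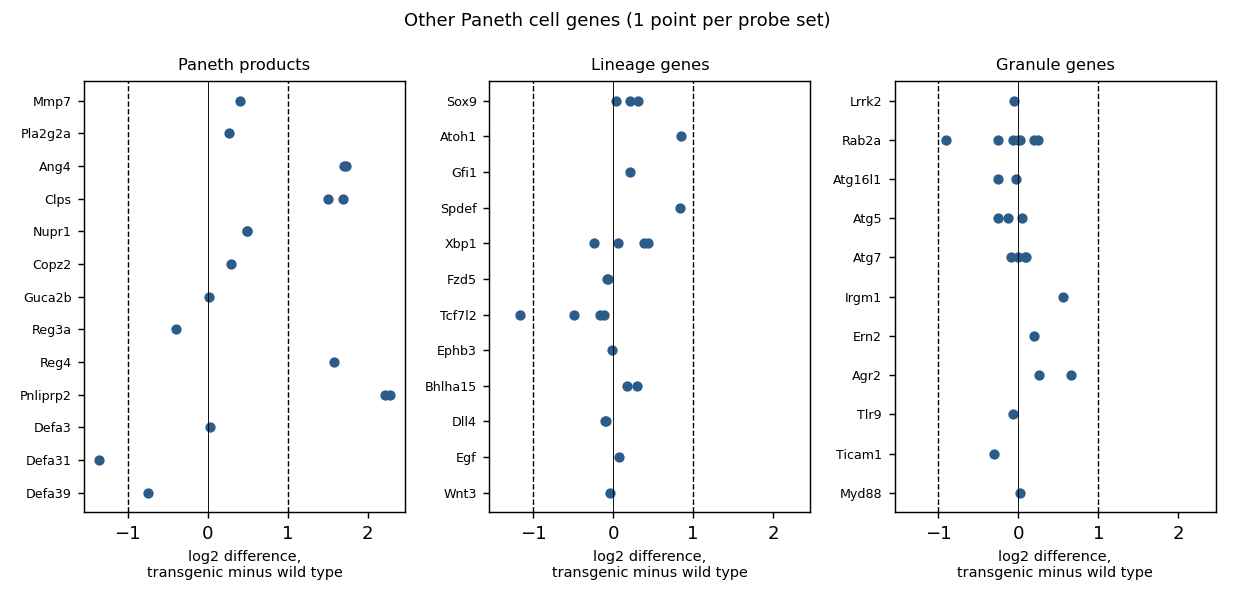
Log2 differences (transgenic minus wild type) of other Paneth cell products, lineage genes and granule genes, 1 point per probe set, with dashed lines at 2-fold. Ang4, Clps, Reg4 and Pnliprp2 lie above the upper line and Defa31 (-1.36) below the lower line, as does 1 of the 4 probe sets of Tcf7l2 (-1.16), while granule genes lie between the lines.

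Signs of tissue make-up and RNA quality also differed in part between the pools. Goblet cells, which share Itln1 with Paneth cells, had 1 of 8 markers higher by 2-fold, Retnlb (567 against 44.6), and a median of 0.37. Clca1, Agr2 and Spink4 differed by 0.87, 0.66 and 0.64, but Muc2 and Tff3 by 0.09 and -0.0043. Fcgbp and Zg16 differed by -0.15 and -0.22. Mast cell markers had 4 of 7 higher by 2-fold, and exocrine pancreas markers 0 of 7, with the defining enzyme Cpa1 at 63.8 against 63.5. Of the markers of gut segment, 0 of 7 proximal ones passed 2-fold, Onecut2 at -0.57 and Ada at 0.42 being farthest from 0. Of 7 distal ones, 1 was lower by 2-fold, Cubn (2851 against 5833), while the ileal genes Fabp6 and Slc10a2 read under 14 in both pools. For actin the 3′ probe set read 1.33 times the 5′ one with the transgene and 1.61 times in wild type, and for Gapdh 1.08 and 1.22 times. Whether segment, cell make-up or RNA quality had a part in the Mptx1 and lysozyme values was not tested.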

How the data were processed

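Total RNA (10 µg, 1 pool of 3 mice per group) was labelled with biotin and hybridised to 2 arrays, per the labels' protocols. The deposited values are intensities on a linear scale, from RMA, which the submitters' processing notes name without a version. RMA aligns the distributions of arrays, so a shift shared by most genes cannot be seen. Medians were 78.7 (transgenic) and 78.3 (wild type). Gene names came from a platform annotation table: 34945 probe sets had 1 symbol, 932 several (none a member) and 9160 none. The sources used here give no chip build and no detection calls.

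Groups followed the source label. Differences were computed in Python 3.11.15 (pandas 2.3.3) as log2(intensity + 1), transgenic minus wild type. For lists, each gene was represented by its brightest probe set of 1 symbol. Counts were taken at 2-fold with no filter, beside all features. The number of arrays, 1 per group, limits the precision and allows no test. The calculation was tested on simulated data. Alternatives were the pseudocount (0, 16), scaling (quantile, median, hybridisation controls), filters, probe set choice and fold (1.5, 3). Members and lists were chosen with earlier results of these data known. Named genes are all members, up to 4 genes past 2-fold per list or else the 2 largest, and the 3 nearest to the leading member. All other named genes were chosen after their values were seen.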

Additional observations from a re-analysis of the deposited data

How the results depend on the processing

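No paired analysis was possible because each group is 1 array. The counts of member probe sets, 1 higher and 0 lower by 2-fold, stayed the same under each alternative run except the 3-fold threshold. There 0 were higher, since Mptx1 is 2.89-fold higher. Some of these alternatives could not change the counts. No member probe set had several symbols. The filters, and the removal of probe sets that can bind related transcripts, kept that of Mptx1. Centring on the hybridisation controls, chosen after the data were seen, moved every member gene by 0.25: Mptx1 to 1.79, Lcn2 to 0.59, Itln1 to 0.43, Habp2 to 0.41, Lypd8 to 0.24, Lyz1 to 0.0072 and Lyz2 to -0.12. Lyz1 and Lypd8 changed sign there alone, and the other 5 kept their sign in all 7 alternatives run on the differences. For genes with 1 probe set, the alternatives of probe set choice could not change the value. Over the related and pathway lists, 1 gene was lower by 2-fold as reported and 2 under quantile normalization and under median scaling, where Reg3b passed. For single lists, 137 of 140 alternative counts were equal to the reported one or within 1.5 times of it. Most of the reported counts were 0 and stayed at 0, and the 3 that moved all started from 0. Dim probe sets, those of Lcn2 and the second of Habp2, limit what can be read from their differences.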
